A study of Mus musculus with 35 samples.

Results

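The genes described here are 8 specifiers and early markers of primordial germ cells, the precursors of sperm and eggs: Prdm1, Prdm14, Nanos3, Dppa3, Dnd1, Ifitm1, Ifitm3 and Kit. They were taken by symbol from a table of 54446 genes, and each symbol stood on 1 gene. All 8 were followed through 27 bulk RNA-seq libraries of mouse cells, of which 15 came from embryos and 12 from cultures, with 3 libraries per group. The other 8 samples of the series, from single-cell RNA and bisulfite sequencing, were not analysed here.

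The embryonic libraries are labelled as wild-type, untreated CD-1 embryos at 5 stages taken a day apart, from embryonic day 3.5 (E3.5) to E7.5. According to the methods they came from natural matings of CD1 or Pdgfrα:H2B-GFP mice, and each library pooled several embryos. The inner cell mass was isolated at E3.5 and the epiblast at later stages, where the epiblast is the pluripotent tissue that forms the body. The visceral endoderm and extra-embryonic ectoderm were dissected away after implantation, and the allantois as well at E7.5. The cultures are labelled as wild-type. ESC-derived 3D EpiSCs and embryo-derived 3D EpiSCs are epiblast stem cells grown as spheroids in Matrigel with FGF2, Activin-A, the tankyrase inhibitor XAV939 and the BMP antagonist Noggin, the former started from embryonic stem cells (ESCs) and the latter from E5.5 epiblasts. 2D EpiSCs were converted from ESCs with FGF2 and Activin-A, and epiblast-like cells (EpiLCs) are ESCs kept for 48 h in FGF2 and Activin-A. Origin, medium and dimension therefore changed together in several of the comparisons, and their parts cannot be told apart.

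In the mouse embryo, germ cell fate is induced in a few proximal epiblast cells by BMP signals from the extra-embryonic ectoderm, on a background of Wnt signalling. The transcriptional regulators Prdm1 (Blimp1) and Prdm14 then repress the somatic programme and restore pluripotency genes. Ifitm3 (Fragilis) and Ifitm1 are interferon-inducible membrane proteins that mark the competent and nascent germ cells, Dppa3 (Stella) is a chromatin protein of germ cells, oocytes and early embryos, Nanos3 and Dnd1 are RNA-binding proteins needed for germ cell survival, and Kit is the receptor of stem cell factor, which the migrating germ cells need. Several of these genes have other sites of expression: Prdm1 in the visceral endoderm, Dppa3 and Prdm14 in preimplantation cells and naive ESCs, and Ifitm1 in mesoderm. In bulk samples, fewer cells that express a gene and less RNA per cell cannot be told apart.

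On mm10, Ifitm1 lies at chromosome 7, 140967221 to 140969825 on the plus strand, and Ifitm3 close by at 141009586 to 141010770 on the minus strand. The other genes lie apart from them: Prdm1 at chromosome 10, 44437177 to 44528501 (minus strand), Prdm14 at chromosome 1, 13113457 to 13127163 (minus), Dppa3 at chromosome 6, 122626410 to 122630272 (plus), and Kit at chromosome 5, 75574916 to 75656722 (plus). Nanos3, at chromosome 8, 84173731 to 84185217 (minus), contains the microRNA genes Mir181c and Mir181d. Dnd1 overlaps the end of Wdr55 on the other strand by 38 bases. No window of 100 bases in any annotated transcript of the 8 genes recurred exactly in a transcript of another gene of GENCODE vM21.

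Of the 8 genes, 5 had an entry in RefSeq's promoter table for GRCm38.p6, the assembly of mm10: Prdm1, Nanos3, Ifitm1, Ifitm3 and Kit. The upstream sequences of 4 of them are shown because Ifitm1 and Ifitm3 are neighbours, of which Ifitm1 was called from E6.5 to E7.5 and Ifitm3 was not, while Prdm1 and Kit rose together in the embryo. Each line gives the 250 bases before the start site, 5′ to 3′ on the gene's strand. Capitals mark the AP-2 site GCCNNNGGC, the Sp1 box GGGCGG and the TATA box TATAAA, searched on both strands.
Ifitm1: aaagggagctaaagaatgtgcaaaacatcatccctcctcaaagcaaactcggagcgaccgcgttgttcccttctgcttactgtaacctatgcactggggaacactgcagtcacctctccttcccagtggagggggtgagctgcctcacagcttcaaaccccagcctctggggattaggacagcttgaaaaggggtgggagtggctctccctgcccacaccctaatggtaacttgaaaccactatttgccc
Ifitm3: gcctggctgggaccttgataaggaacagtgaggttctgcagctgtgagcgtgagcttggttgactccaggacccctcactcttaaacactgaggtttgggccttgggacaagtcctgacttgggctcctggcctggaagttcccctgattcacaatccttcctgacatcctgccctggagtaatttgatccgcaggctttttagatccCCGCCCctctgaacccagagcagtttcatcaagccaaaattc
Prdm1: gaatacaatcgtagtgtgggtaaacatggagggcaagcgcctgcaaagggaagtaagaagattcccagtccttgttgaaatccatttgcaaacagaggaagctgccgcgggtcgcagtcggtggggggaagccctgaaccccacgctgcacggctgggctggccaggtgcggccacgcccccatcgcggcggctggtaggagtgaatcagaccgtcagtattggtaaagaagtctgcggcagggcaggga
Kit: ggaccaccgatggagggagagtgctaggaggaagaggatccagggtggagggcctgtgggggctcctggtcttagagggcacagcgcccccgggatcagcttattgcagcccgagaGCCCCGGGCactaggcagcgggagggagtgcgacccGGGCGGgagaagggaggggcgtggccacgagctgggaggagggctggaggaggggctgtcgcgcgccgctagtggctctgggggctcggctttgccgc

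These windows are chr7:140967826-140968075 (plus strand) for Ifitm1, chr7:141010745-141010994 (minus) for Ifitm3, chr10:44458749-44458998 (minus) for Prdm1 and chr5:75574737-75574986 (plus) for Kit. The table's start sites of all 5 genes lie inside the gene's limits in the deposited file, those of Ifitm3 and Kit close to the gene's start. Other start sites therefore exist. The core of the interferon response element, searched as a pair of GAAA half-sites with any 2 bases between them on either strand, occurred in 3.44% of the table's 32851 promoters, each taken from 250 bases before to 50 after the start site. Ifitm3 held a pair of matches just after its start, GAAAAGGAAA from base 3 and GAAACCGAAA from base 20, and the Ifitm1 window held none. The Sp1 box was found in 35.7% of all promoters, among them Ifitm3 at base -42, Kit at -98 and Nanos3 at -216, and the AP-2 site in 16.6%, among them Kit at -134 and Nanos3 at -221. No TATA box, which 13.6% of all promoters held, and no TCF/LEF site CTTTGAT, which 3.73% held, was found in these 5. The Prdm1 and Kit windows each held 20 CpG dinucleotides in 300 bases, those of Ifitm1 and Ifitm3 5 each, and that of Nanos3 3, against a median of 7 over all promoters. A match is a description of the letters and not a bound site.

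Values are TPM as deposited, a transcript abundance corrected for length and scaled to the same total in every library. Differences were tested with limma on log2(TPM + 1), in 1 fit of the 12 culture libraries and 1 of the 15 embryonic libraries, over the autosomal protein-coding genes with a TPM above 2 in at least 3 libraries. A gene was called when its Benjamini-Hochberg adjusted p was below 0.05 and its log2 fold change was above 1 in size. Fold changes on this scale understate the change of low genes. Of the 8 genes, 6 passed the filter in the cultures and 7 in the embryo. Dppa3 passed in the cultures only through the EpiLCs, and Prdm14 in the embryo only through E3.5, so for these it was fixed that the groups would differ, and their values are given as a description. Library preparation differed between embryo and cultures, so levels are set side by side without a test. Within the embryo, RNA was fragmented in another way at E3.5 and E4.5 than later. From E4.5 to E5.5, stage and fragmentation therefore cannot be told apart.

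Between 20324 and 26751 genes were above 0 TPM in the embryonic libraries and between 22215 and 24438 in the cultures. Markers of other cell types were measured in the same libraries. The summed TPM of 10 primitive or visceral endoderm markers was 521.76 to 534.02 at E3.5, 155.12 to 181.76 at E4.5, 693.23 to 746.93 at E5.5, 1127.7 to 1154.8 at E6.5 and 1213.4 to 1239.4 at E7.5, with the liver-type secreted proteins Apoa1 and Ttr at means of 469.6 and 266.06 TPM at E7.5. At E3.5 and E4.5, 8 trophectoderm or extra-embryonic ectoderm markers summed to between 2933.7 and 3278.5 TPM, led by the keratins Krt8 and Krt18. Epiblast markers were present in every library, with Pou5f1 at a mean of at least 251.33 TPM in each group. Among the ESC-derived 3D EpiSCs, replicate 3 stood apart: endoderm markers summed to 14.015 TPM there against 0.98193 and 0.82492 in the other 2, and its median difference from them over all tested genes was 0.271 and 0.269 on the log2 scale, against 0.061 between those 2.

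**Figure D1:**
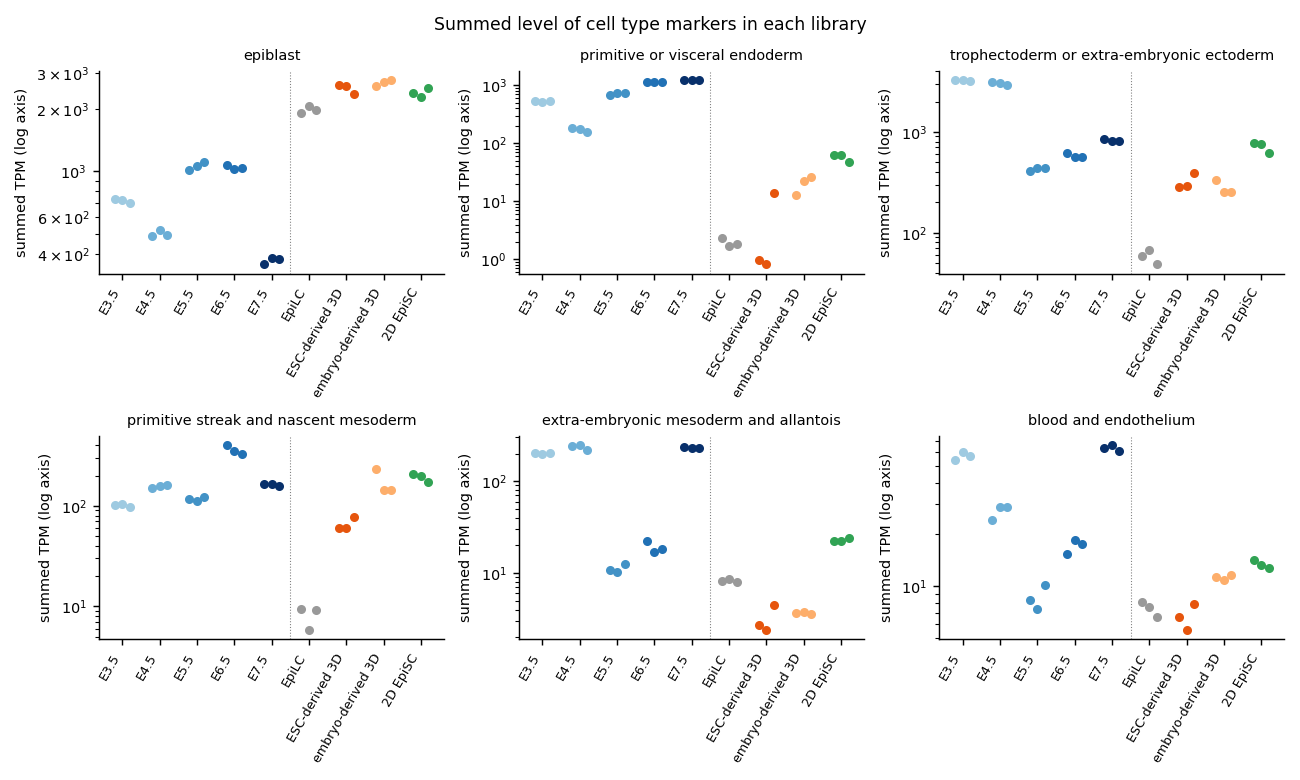
Summed TPM (log axis) of the genes of 6 cell type marker lists in each library, by embryonic stage and culture, with 1 point per library. The lowest endoderm sum in the embryo is 155.12 TPM and the highest in the cultures 64.168 TPM.

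The regulators Prdm1 and Prdm14 followed opposite courses in the embryo. Prdm1 measured 0.506, 0.840 and 1.03 TPM at E3.5 and 0.598, 0.597 and 0.718 TPM at E4.5. It measured 3.78, 5.14 and 4.17 TPM at E5.5, 4.07, 7.13 and 4.55 TPM at E6.5 and 10.3, 11.5 and 12.6 TPM at E7.5. All post-implantation libraries were thus above all earlier ones, and the E7.5 libraries were above all others. Prdm1 rose 6.85-fold in mean TPM from E4.5 to E5.5 (log2 fold change 1.70 ± 0.17, SE, limma adjusted p = 9.2e-07) and 2.18-fold from E6.5 to E7.5 (1.02 ± 0.17, adjusted p = 0.00021). The 2 neighbours E3.5 and E4.5, and E5.5 and E6.5, overlapped and did not differ past the threshold, with differences of -0.12 (95% interval -0.48 to 0.24) and 0.20 (-0.16 to 0.56). The step to E7.5 lies just above the fold limit, and after scaling libraries by their median ratio to the others it was 0.72 (adjusted p = 0.0025) and no longer called. It also fell under the limit without E6.5 replicate 1, E6.5 replicate 3 or E7.5 replicate 3, at 0.89, 0.95 and 0.96. The endoderm marker sum, given above, was also higher at E5.5 than at E4.5, and higher again at E6.5, and its part in the Prdm1 level was not tested.

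Prdm14 measured 5.81, 6.00 and 5.77 TPM at E3.5 and 1.00, 0.949 and 0.998 TPM at E4.5. It was at 0 or below 0.7 TPM in every later library, with 0, 0.0566 and 0 TPM at E5.5, 0.216, 0.248 and 0 TPM at E6.5 and 0, 0.667 and 0.217 TPM at E7.5. The E3.5 libraries were close together and 5.96-fold above E4.5 in the mean. The difference from E3.5 to E4.5 was -1.79 ± 0.15, and that from E4.5 to E5.5 was -0.96 ± 0.15 (limma adjusted p = 6.3e-05), short of the fold limit on this scale although the groups did not overlap. With a pseudocount of 0.1 in place of 1 the latter was -3.22 and called. Prdm14 was listed at 0 in 11 of the 12 culture libraries and at 0.0517 TPM in EpiLC replicate 2.

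In the cultures, Prdm1 was highest in 2D EpiSCs, at 15.4, 16.6 and 11.2 TPM, above every other culture library. Side by side, 2 of these values lay above the 10.3 to 12.6 TPM of the E7.5 epiblast and 1 within it. Embryo-derived 3D EpiSCs measured 2.06, 2.73 and 3.396 TPM and EpiLCs 2.44, 2.80 and 3.24 TPM, which overlapped (difference -0.05, 95% interval -0.73 to 0.63). ESC-derived 3D EpiSCs measured 0.333, 0.349 and 2.46 TPM, the third value being that of replicate 3. Prdm1 was 5.27-fold lower in embryo-derived 3D EpiSCs than in 2D EpiSCs (-2.04 ± 0.31, limma adjusted p = 0.00049) and 13.7-fold lower in ESC-derived 3D EpiSCs (-3.05 ± 0.31, adjusted p = 3.7e-05). Without replicate 3 the latter was -3.50 (adjusted p = 5.3e-07). The 10 endoderm markers, by summed TPM, were at 47.427 to 64.168 in 2D EpiSCs, at 12.752 to 26.154 in the embryo-derived and 0.82492 to 14.015 in the ESC-derived spheroids, and at 1.69 to 2.3289 in EpiLCs. In 2D EpiSCs the endoderm regulators Sox17, Gata6 and Gata4 measured 25.02, 21.5 and 8.23 TPM in the mean, against 0.21, 0.19 and 0.36 TPM in EpiLCs, while Ttr was at 0.09 TPM in 2D EpiSCs and listed at 0 in all libraries of the other 3 cultures. Of the 4 endoderm markers tested in the cultures, Sox17, Gata6 and Gata4 were called lower in ESC-derived 3D than in 2D EpiSCs, and Pdgfra was not called. In embryo-derived 3D EpiSCs, Sox17 and Gata4 were called lower than in 2D EpiSCs, Pdgfra was called higher and Gata6 was not called. Over all genes 9.25% were lower in the ESC-derived spheroids, and 7.75% were lower and 1.07% higher in the embryo-derived ones. For a marker that passed the filter through a single culture, a difference from that culture was fixed. Which markers did so was not checked. The part of these markers in the Prdm1 difference was not tested.

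The germ cell gene Dppa3 showed the widest range of the 8. It measured 343, 388 and 333 TPM at E3.5, above 98.1% of the genes tested, and 31.4, 35.8 and 35.1 TPM at E4.5. It measured 5.55, 7.23 and 7.71 TPM at E5.5, 3.11, 3.85 and 5.07 TPM at E6.5, and 1.85, 0.520 and 0.696 TPM at E7.5. No 2 successive stages overlapped, and each was lower than the one before. The fall was 10.4-fold in mean TPM from E3.5 to E4.5 (log2 fold change -3.34 ± 0.21, limma adjusted p = 1.4e-08), 4.99-fold from E4.5 to E5.5 (-2.17 ± 0.21, adjusted p = 7.2e-07) and 3.93-fold from E6.5 to E7.5 (-1.35 ± 0.21, adjusted p = 0.00013). The step from E5.5 to E6.5, at -0.65 ± 0.21, was not called (adjusted p = 0.060). The pseudogene Dppa3-ps was listed at 0 to 61.6 TPM over the 27 libraries. A gene measured next to a near copy carries the doubt of how reads were shared out, although no window of 100 bases was identical.

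Among the cultures, Dppa3 was measured in EpiLCs at 8.39, 6.82 and 10.3 TPM and stood at or near 0 in all the others. It was listed at 0 in every embryo-derived 3D library, at 0, 0 and 0.0825 TPM in ESC-derived 3D EpiSCs, and at 0, 0 and 0.0942 TPM in 2D EpiSCs. The EpiLC level lay side by side with that of the E5.5 epiblast.

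The RNA-binding proteins were low. Nanos3 reached at most 0.524 TPM in any of the 27 libraries, was listed at 0 in all 3 libraries of E4.5, and passed the filter in neither system. Dnd1 measured 0.350, 1.40 and 0.979 TPM at E3.5, 1.59, 2.66 and 1.35 TPM at E4.5, 2.26, 2.82 and 2.42 TPM at E5.5, 2.45, 1.27 and 1.33 TPM at E6.5 and 2.39, 2.96 and 2.17 TPM at E7.5. Neighbouring stages overlapped, and no successive step was called, although with a pseudocount of 0.1 the step from E3.5 to E4.5 moved from 0.60 to 1.07 and was called (adjusted p = 0.037). Only E5.5 and E7.5 stood wholly above E3.5, each with a difference of 0.91 ± 0.22 (limma adjusted p = 0.0023 and 0.0021), below the fold limit.

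In the cultures, Dnd1 was highest in EpiLCs, at 8.69, 10.0 and 7.28 TPM, which no other culture library approached. In 2D EpiSCs it measured 0.680, 0.958 and 2.06 TPM. The ESC-derived spheroids measured 2.17, 2.66 and 0.718 TPM, and those from embryos 0.853, 0.619 and 0.547 TPM. Against EpiLCs it was 4.69-fold lower in the ESC-derived spheroids (-1.82 ± 0.27, limma adjusted p = 0.00025), 12.9-fold lower in the embryo-derived ones (-2.52 ± 0.27, adjusted p = 1.3e-05) and 7.03-fold lower in 2D EpiSCs (-2.15 ± 0.27, adjusted p = 4.3e-05). The 2 kinds of 3D EpiSC overlapped, at 0.70 (95% interval 0.10 to 1.30, adjusted p = 0.088). Without ESC-derived replicate 3 their difference was 1.03 and called (adjusted p = 0.0051). The overlapping gene Wdr55 measured, in the mean, 90.5 TPM in EpiLCs, 95.1 TPM in the ESC-derived and 74.7 TPM in the embryo-derived spheroids, and 75.7 TPM in 2D EpiSCs. Its part in the Dnd1 levels was not tested.

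Of the membrane proteins, Ifitm1 rose from E6.5 to E7.5 and Ifitm3 was not called in that step. Ifitm1 measured 1.30, 1.66 and 1.90 TPM at E3.5, 7.61, 12.5 and 4.35 TPM at E4.5 and 3.42, 4.56 and 4.77 TPM at E5.5. It measured 7.95, 10.9 and 9.03 TPM at E6.5 and 74.1, 96.9 and 96.8 TPM at E7.5. The E7.5 libraries were far above all others, and exceeded 88.9% of the genes tested there in the mean. Ifitm1 rose 9.61-fold in mean TPM from E6.5 to E7.5 (log2 fold change 3.13 ± 0.26, limma adjusted p = 4.6e-07) and 5.04-fold from E3.5 to E4.5 (1.71 ± 0.26, adjusted p = 7.9e-05). The step from E5.5 to E6.5 was 0.97 ± 0.26 (adjusted p = 0.029), just below the fold limit, and was called without E6.5 replicate 1 (1.07, adjusted p = 0.042). From E4.5 to E5.5 it was -0.71 ± 0.26 (adjusted p = 0.027), and without E4.5 replicate 3 it was -1.05 and called. At E7.5 the summed TPM of 7 extra-embryonic mesoderm and allantois markers was 228.65 to 235.19, against 16.961 to 22.646 at E6.5. Of the 6 tested, 6 were called higher, where 10.6% of all genes were. For a marker that passed the filter only through E7.5 this was fixed. Which markers did so was not checked, so the count is a description. The sum was 199.63 to 204.6 TPM at E3.5 and 220.67 to 247.04 TPM at E4.5 as well, but there Ahnak made up most of it (165.55 and 155.18 TPM in the mean), and Hand2 and Foxf1, at 33.3 and 33.8 TPM at E7.5, did not exceed 0.43 TPM in the mean. The 8 primitive streak and nascent mesoderm markers had a lower sum at E7.5, at 157.58 to 166.15 TPM, than at E6.5, at 325.52 to 401.66 TPM. Of these, 2 were called higher and 5 lower, against 10.6% and 1.94% of all genes. The part of either list of markers in the Ifitm1 level was not tested.

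Ifitm3 had no called step after E4.5. It measured 3.56, 5.92 and 7.58 TPM at E3.5, 11.05, 10.8 and 21.1 TPM at E4.5, 12.4, 9.31 and 12.04 TPM at E5.5, 8.47, 10.2 and 8.89 TPM at E6.5 and 13.1, 11.9 and 10.6 TPM at E7.5. The E3.5 libraries were below all later ones, and from E4.5 on the order by mean was E4.5, E7.5, E5.5 and E6.5, in which neighbours overlapped. The E6.5 libraries lay below all those of E4.5 (-0.53, 95% interval -1.06 to 0.0031, limma adjusted p = 0.079) and of E7.5 (0.33, -0.20 to 0.86, adjusted p = 0.27, E7.5 against E6.5), without a call. The 1 called step was E3.5 to E4.5, 2.52-fold in mean TPM (1.18 ± 0.25, limma adjusted p = 0.0011), and without E4.5 replicate 3 or E3.5 replicate 1 it was 0.88 or 0.93 and not called. The ratio of Ifitm3 to Ifitm1 within a library was 3.43 ± 0.64 (SD, n = 3) at E3.5, 2.39 ± 2.16 at E4.5, 2.73 ± 0.81 at E5.5, 0.996 ± 0.064 at E6.5 and 0.136 ± 0.036 at E7.5. All E6.5 ratios were below all those of E5.5, and all E7.5 ratios below those of E6.5.

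In the cultures, Ifitm3 was highest in EpiLCs, at 176, 215 and 183 TPM, above 94.0% of the genes tested. It measured 41.2, 48.1 and 42.5 TPM in 2D EpiSCs. In the spheroids it measured 36.3, 42.4 and 29.6 TPM where they came from ESCs and 7.95, 6.67 and 4.03 TPM where they came from embryos. The 2D and ESC-derived 3D EpiSCs overlapped (difference -0.29, 95% interval -0.72 to 0.14), while the embryo-derived 3D EpiSCs were below every other culture library. Between the spheroids Ifitm3 was 5.80-fold higher in the ESC-derived ones (2.39 ± 0.20, limma adjusted p = 1.3e-05), and the embryo-derived ones were 7.06-fold below 2D EpiSCs (-2.68 ± 0.20, adjusted p = 2.5e-06) and 30.7-fold below EpiLCs (-4.77 ± 0.20, adjusted p = 4.0e-09). One came from an ESC line and the other from embryos of other mice, so origin and genetic background cannot be told apart.

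Ifitm1 measured 38.6, 50.4 and 79.6 TPM in EpiLCs, and 21.6, 19.9 and 25.6 TPM in 2D EpiSCs. It measured 12.6, 5.11 and 7.16 TPM in the embryo-derived and 3.43, 3.42 and 11.3 TPM in the ESC-derived spheroids, replicate 3 being the highest of the latter. The 3D groups overlapped each other (difference -0.50, 95% interval -1.39 to 0.39), and both were below 2D EpiSCs and EpiLCs in every library. Below 2D EpiSCs, Ifitm1 was 3.71-fold lower in the ESC-derived spheroids (-1.90 ± 0.41, limma adjusted p = 0.0034) and 2.697-fold lower in the embryo-derived ones (-1.40 ± 0.41, adjusted p = 0.021). With the replicates that were nearly the same averaged, neither was called (adjusted p = 0.052 and 0.13). The second call was lost without 2D EpiSC replicate 1 or 3 or embryo-derived replicate 2 or 3, at adjusted p from 0.056 to 0.086, and with no filter on low values (0.069). Between 2D EpiSCs and EpiLCs the difference was -1.23 ± 0.41 (adjusted p = 0.021), and it was lost without 2D EpiSC replicate 1 or 2 or EpiLC replicate 3, at adjusted p from 0.054 to 0.088, and with no filter (0.064). Ifitm2, another gene of the cluster on chromosome 7, was called in none of the 10 comparisons and had mean levels of 305.6 to 486.46 TPM in the cultures and 33.81 to 61.04 TPM in the embryo. The remaining 4 of 5 listed Ifitm genes, Ifitm5, Ifitm6, Ifitm7 and Ifitm10, did not pass the filter.

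**Figure D2:**
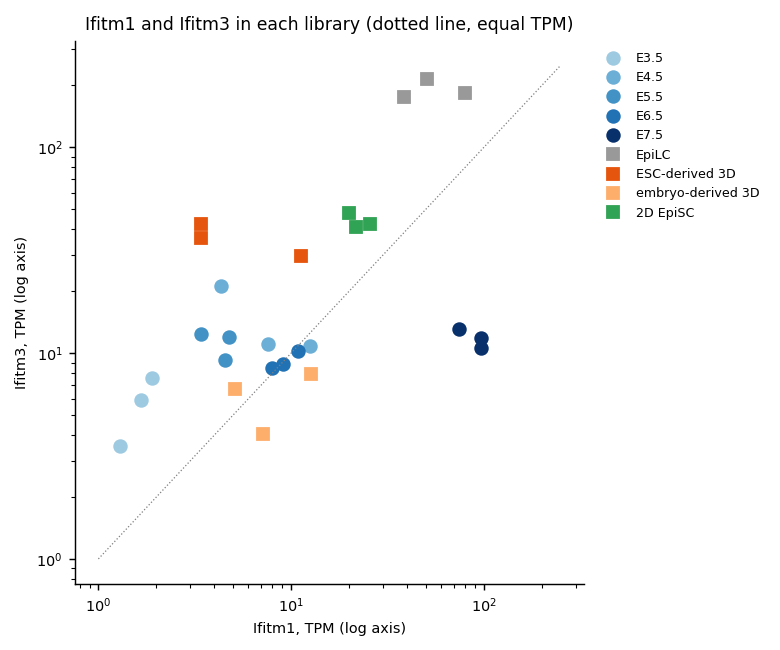
Ifitm3 against Ifitm1, both in TPM on log axes, with 1 point per library, circles for embryonic stages and squares for cultures. The E7.5 libraries, with Ifitm3 at 10.6 to 13.1 TPM, lie far below the line of equal TPM, and the EpiLC libraries above it.

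The receptor gene Kit rose in 2 steps of the embryonic series. It measured 2.07, 2.399 and 1.34 TPM at E3.5, 2.08, 1.07 and 1.04 TPM at E4.5, 9.38, 9.84 and 8.44 TPM at E5.5, 6.71, 8.30 and 5.80 TPM at E6.5 and 21.6, 20.6 and 18.5 TPM at E7.5. The E3.5 and E4.5 libraries overlapped (-0.30, 95% interval -0.68 to 0.08), the E6.5 libraries lay just under those of E5.5 (-0.37, -0.75 to 0.003) without a call, and the E7.5 libraries were above all others. Kit rose 6.59-fold from E4.5 to E5.5 (2.12 ± 0.17, limma adjusted p = 1.8e-07) and 2.91-fold from E6.5 to E7.5 (1.43 ± 0.17, adjusted p = 1.9e-05). Its ligand Kitl, stem cell factor, also rose from E6.5 to E7.5, from 5.22 to 19.7 TPM in the mean (1.75, adjusted p = 0.00089).

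In the cultures, Kit was highest in 2D EpiSCs, at 34.0, 32.2 and 22.5 TPM, which overlapped the 25.04, 19.1 and 20.02 TPM of embryo-derived 3D EpiSCs (difference -0.44, 95% interval -0.96 to 0.09). ESC-derived 3D EpiSCs measured 7.32, 6.70 and 11.4 TPM and EpiLCs 6.92, 5.93 and 3.53 TPM, also overlapping (0.56, 0.03 to 1.08, adjusted p = 0.077). Kit was 2.52-fold lower in the ESC-derived spheroids than in those from embryos (-1.26 ± 0.24, limma adjusted p = 0.0048), and 3.49-fold lower than in 2D EpiSCs (-1.70 ± 0.24, adjusted p = 0.00029). With the replicates that were nearly the same averaged, the former was -1.22 and not called (adjusted p = 0.084).

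**Figure D3:**
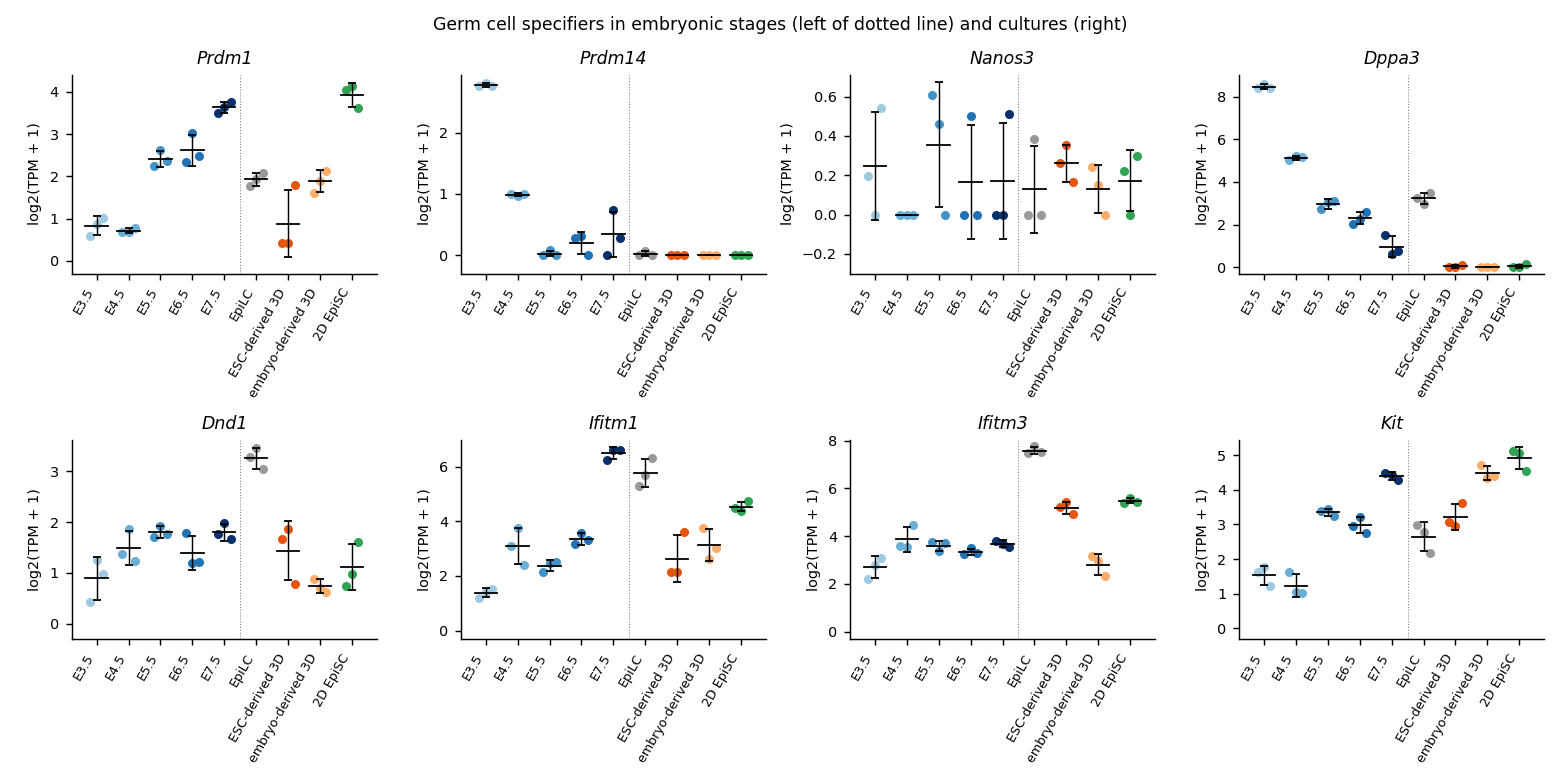
Levels of the 8 genes as log2(TPM + 1) in each library (points) with the mean and SD of 3 libraries, for the embryonic stages left of the dotted line and the cultures right of it. Prdm1, Ifitm1 and Kit peak at E7.5 in the embryo, Dppa3 and Prdm14 at E3.5, and Dppa3 is near 0 in 3 of the 4 cultures.

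Read by stage, 4 of the 7 genes tested were called from E3.5 to E4.5: Ifitm1 and Ifitm3 were higher, where 5.88% of the 11880 genes tested were, and Dppa3 and Prdm14, the latter fixed by the filter, lower, where 11.9% were. From E4.5 to E5.5, Prdm1 and Kit were higher, against 14.9% of all genes, and Dppa3 lower, against 9.47%. From E5.5 to E6.5 none of the 7 was called with limma, against 0.715% of genes higher and 0.48% lower. By unadjusted p below 0.05, 3163 of the genes tested differed in that step, Ifitm1 and Dppa3 among them. From E6.5 to E7.5, Prdm1, Ifitm1 and Kit were higher, against 10.6% of genes, and Dppa3 lower, against 1.94%. Over all genes the median difference was 0.31 in that last step, 0.16 from E4.5 to E5.5, -0.10 from E3.5 to E4.5 and -0.06 from E5.5 to E6.5. Relative to it the E7.5 changes were 0.71 for Prdm1, 2.82 for Ifitm1, 1.11 for Kit and -1.66 for Dppa3.

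**Figure D4:**
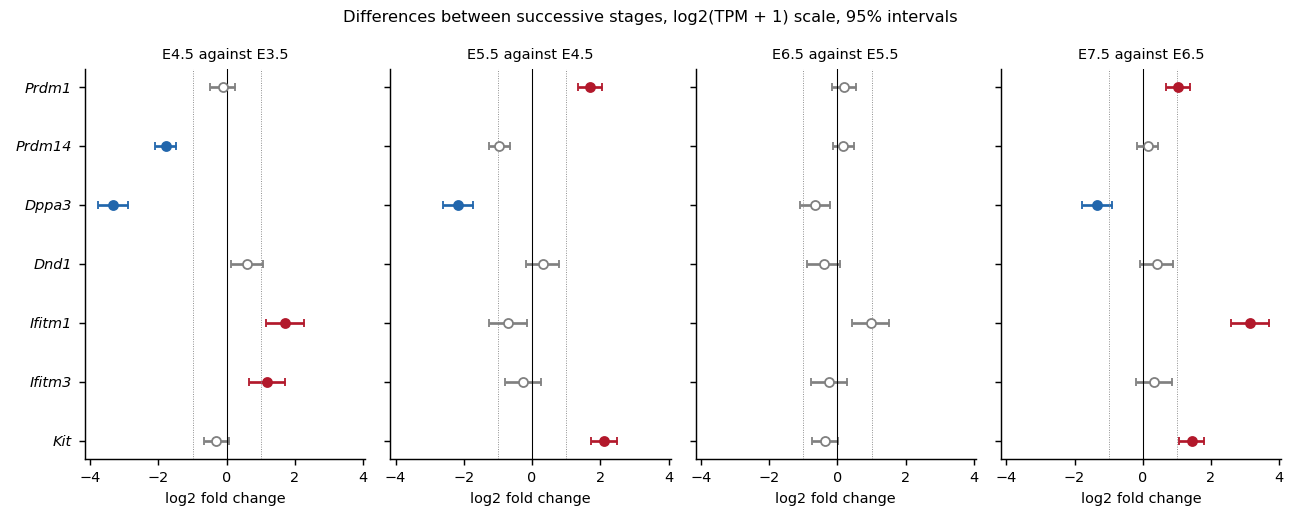
Log2 fold changes on the log2(TPM + 1) scale between successive stages for the 7 genes tested, with 95% intervals. Filled points are called (red higher, blue lower), open points are not, and dotted lines mark a log2 fold change of 1 in each direction.

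Read by culture, ESC-derived 3D EpiSCs were lower than 2D EpiSCs in 3 of the 6 genes tested, Prdm1, Ifitm1 and Kit, where 9.25% of the 11541 genes tested were lower and 0.633% higher. Embryo-derived 3D EpiSCs were lower in Prdm1, Ifitm1 and Ifitm3, against 7.75% lower and 1.07% higher. None of the 6 was higher in either 3D culture than in 2D EpiSCs. Between the 3D cultures, Ifitm3 was higher and Prdm1 and Kit lower in the ESC-derived ones, where 1.98% of genes were called in each direction. The Prdm1 difference there, -1.003 ± 0.31 (limma adjusted p = 0.042), came from overlapping groups. Without ESC-derived replicate 3 it was -1.46 (adjusted p = 0.00023), and it was no longer called without ESC-derived replicate 1 or 2 or embryo-derived replicate 2 or 3, at adjusted p of 0.11 to 0.16, nor with no filter (0.12) or with the compared groups alone (0.13). With rescaled TPM (-0.95) or with nearly identical replicates averaged (-0.71, adjusted p = 0.39) it was not called either.

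Against EpiLCs, 5 of 6 genes were lower in ESC-derived 3D EpiSCs, all but Kit and with Dppa3 fixed by the filter, where 7.11% of all genes were lower and 5.33% higher. Prdm1 in this comparison was -1.05 ± 0.31 (limma adjusted p = 0.017) with overlapping groups, and was lost without ESC-derived replicate 1 or 2 or EpiLC replicate 3 (adjusted p = 0.068, 0.067 and 0.058), with no filter (0.054) and with the compared groups alone (0.057). Without EpiLC replicate 3 the count fell to 3, since Dppa3 then no longer passed the filter. Embryo-derived 3D EpiSCs were lower in Dnd1, Ifitm1 and Ifitm3, against 8.28% of all genes, and in Dppa3, again fixed by the filter. They were higher in Kit, against 10.5%. 2D EpiSCs were lower in Dnd1, Ifitm1 and Ifitm3 too, against 5.14% of all genes, and in Dppa3, fixed by the filter here as well. They were higher in Kit and Prdm1, against 15.2%. These comparisons share the EpiLC libraries. Over all genes the median difference was -0.21 for ESC-derived 3D against 2D EpiSCs, 0.18 for 2D EpiSCs against EpiLCs, and between -0.12 and 0.10 in the others.

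**Figure D5:**
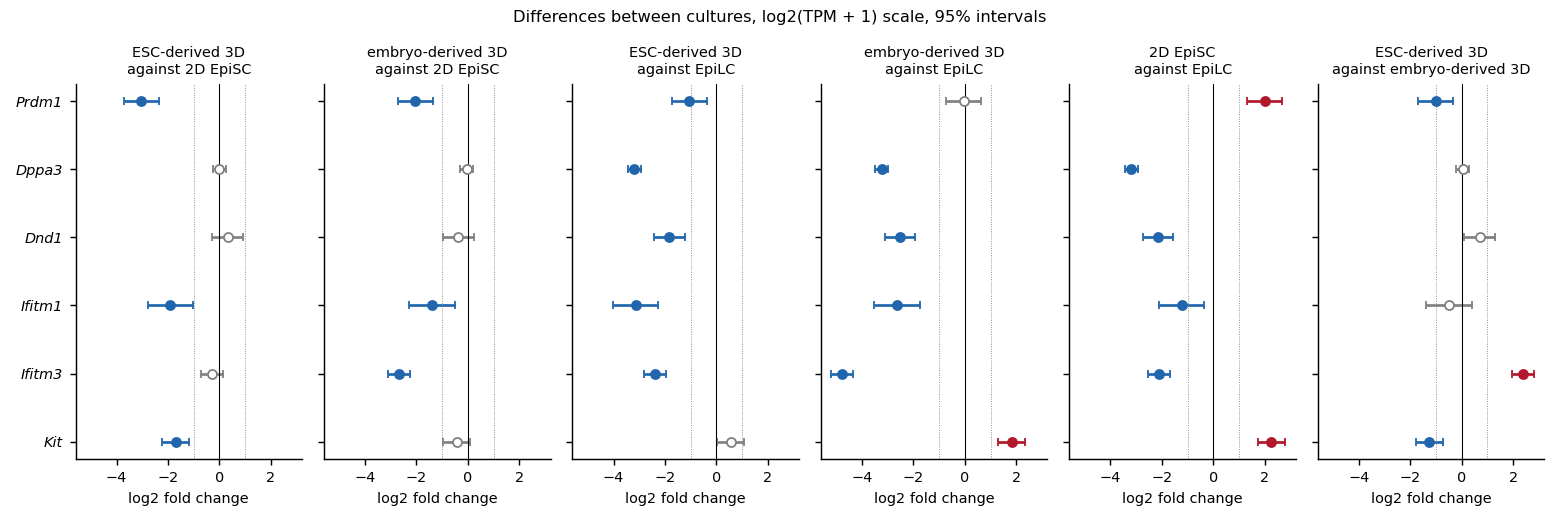
Log2 fold changes on the log2(TPM + 1) scale for the 6 genes tested in each of the 6 pairs of cultures, with 95% intervals. Filled points are called (red higher, blue lower), open points are not, and Ifitm3 is the 1 gene called higher between the spheroids from ESCs and those from embryos.

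Among 12 other early germ cell genes, all tested in the embryo, 1 was higher and 3 were lower from E3.5 to E4.5, 2 higher and 3 lower from E4.5 to E5.5, none from E5.5 to E6.5, and 1 higher and 2 lower from E6.5 to E7.5. Over all genes the shares higher and lower in these steps were 5.88% and 11.9%, 14.9% and 9.47%, 0.715% and 0.48%, and 10.6% and 1.94%. In that last step Alpl, the alkaline phosphatase by which germ cells are stained, was higher (1.60, from a mean of 10.8 to 34.9 TPM), and the pluripotency genes Nanog (-1.58) and Pou5f1 (-1.52) were lower. The median of the 12 was 0.25 against 0.31 over all genes. Tfap2c, the AP-2 factor that acts with Prdm1 and Prdm14, was highest at E4.5, with a mean of 122.38 TPM, and measured 6.60 TPM at E7.5. It is also 1 of the 8 trophectoderm or extra-embryonic ectoderm markers, whose sum at E4.5 was 2933.7 to 3099.1 TPM. The part of trophectoderm cells in the Tfap2c level was not tested. In the cultures 11 of the 12 were tested, and between 1 and 4 were called in each pair. Over all genes 0.633% to 15.2% were higher and 1.98% to 9.25% lower, by pair. Alpl was lower than in EpiLCs in all 3 others (-1.76, -2.73 and -1.94), and Cxcr4, the chemokine receptor of migrating germ cells, was lower in both 3D cultures than in 2D EpiSCs (-4.25 and -2.37). Cxcr4 measured 0.577, 0.752 and 11.9 TPM in the ESC-derived spheroids, the last in replicate 3, and 4.68, 17.0 and 16.1 TPM in the embryo-derived ones. In 2D EpiSCs it measured 67.7, 65.1 and 52.6 TPM.

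Of 12 inducing signals and receptors, 2 were higher and none lower at E4.5 than at E3.5, and 6 were higher and 2 lower at E5.5 than at E4.5, the higher ones being Wnt3, Bmp2, the receptors Bmpr1b and Acvr1, and the mediators Smad1 and Smad5. Over all genes 5.88% were higher and 11.9% lower at E4.5, and 14.9% and 9.47% at E5.5. Bmp4 measured 50.27 TPM in the mean at E4.5, 4.53 at E5.5, 3.98 at E6.5 and 16.8 at E7.5, the last step being a rise of 1.86. Wnt3, the only one of the 12 called from E5.5 to E6.5, rose there (1.03) and fell by 2.63 to E7.5, where 2 of the 12 were higher and 2 lower. Over all genes 0.715% were higher from E5.5 to E6.5, and 10.6% higher and 1.94% lower from E6.5 to E7.5. In the cultures 11 were tested, and Kitl was lower in both spheroid cultures than in 2D EpiSCs (-2.08 and -1.95), the group through which alone it passed the filter. Bmp4 and Bmp2 were also lower than in 2D EpiSCs, in the ESC-derived spheroids only. Wnt3 was higher in the embryo-derived spheroids than in 2D EpiSCs, with means of 28.84 and 7.59 TPM. Of 8 BMP and Wnt response genes, 6 were higher at E7.5 than at E6.5, Axin2, Id2, Msx1, Msx2, Cdx1 and T, where 10.6% of all genes were. The median of the 8 was 1.44 against 0.31 over all genes. In the cultures 5 of these 8 were tested. Id1, a target of BMP signals, was lower in ESC-derived (-2.55) and embryo-derived (-1.90) 3D EpiSCs than in 2D EpiSCs. Id3 was also lower in the former and Id2 in the latter, where 9.25% and 7.75% of all genes were lower. Against EpiLCs none was lower. Id2 and T were higher there in the ESC-derived spheroids, and Id1 and T in the embryo-derived ones. Over all genes 5.33% and 10.5% were higher in these 2 pairs.

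Of 12 later germ cell genes, 9 were tested in the cultures, and 8 of these passed the filter only through the EpiLCs, so that a difference from EpiLCs was fixed for them. In EpiLCs, Mael, a piRNA pathway gene, measured 30.2 TPM in the mean, Hormad1, a meiotic gene, 21.3 TPM and Dazl, an RNA-binding gene of germ cells, 13.0 TPM, and none of these exceeded 0.05 TPM in the mean of another culture. Sycp3, of the synaptonemal complex, was the exception to that filter and measured 21.8 TPM in EpiLCs and 0.66 TPM in 2D EpiSCs, with 1.58 TPM in the ESC-derived and 0.23 TPM in the embryo-derived spheroids. In the embryo 8 of the 12 were tested, and 2 were lower at E4.5 than at E3.5, 3 higher and 3 lower at E5.5 than at E4.5, 3 lower at E6.5 and 1 lower at E7.5. Over all genes in the embryo 14.9% were higher at E5.5, and 11.9%, 9.47%, 0.48% and 1.94% were lower in the 4 steps. Mael passed the filter there only through E5.5, so its place among those higher at E5.5 and lower at E6.5 was fixed. It measured 3.98 TPM at E5.5 and 0.09 at E7.5, and Ddx4 8.31 and 2.15 TPM.

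By Pearson correlation of log2(TPM + 1), given as a description without a test, the genes most like each member differed between systems. Over the 15 embryonic libraries, which fall into 5 stages, Prdm1 was most like Ambp, Fzd3 and Tcaf1 (r of 0.989 to 0.990), Prdm14 like Sord, Ank and Slc13a5, Dppa3 like Cpt1a, Rbm44 and Me1, Ifitm1 like Rab8b, Mcc and Arid3a, and Kit like Ephb1, Pkd2 and Ptprn. Dnd1 (Ttc5, 2410004B18Rik and BC005624) and Ifitm3 (Pitpnc1, Gm3854 and Tfrc) had looser partners, with r of 0.907 and 0.880 at most. Over the 12 culture libraries, Prdm1 was most like Ppfibp2, Cpeb4 and Klhl24, Dppa3 like D1Pas1, CN725425 and Gm2381, Dnd1 like Kars, Sycp3 and Zfp819, Ifitm1 like Galnt6, Tns3 and Akap10, Ifitm3 like Zfp990, Plekhd1 and Tspan17, and Kit like H2afy, Gdpd5 and Efna2. Among the members themselves, Prdm1 and Kit had an r of 0.964 over the embryonic libraries and 0.668 over the cultures. Ifitm1 and Ifitm3 had an r of 0.417 and 0.708, and Dppa3 and Prdm1 of -0.881 and -0.102.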

How the data were processed

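Gene TPM values deposited by the authors were used, from 27 bulk RNA-seq libraries. Per the methods, reads were trimmed with cutadapt 2.4, aligned to mm10 with STAR and quantified with StringTie on GENCODE VM19. Embryonic libraries were made from ribosome-depleted total RNA, with a different fragmentation at E3.5 and E4.5 than later, and culture libraries by poly-A capture. TPM sums to 1000000 in every library, so depth is unknown. Values were log2(TPM + 1), a fold understated for low genes. The study's test needs counts, so limma 3.58.1 in R 4.3.3 was used instead, with lmFit and eBayes, Benjamini-Hochberg adjusted over the 11541 genes tested in vitro and 11880 in vivo. The script was tested on simulated data. No source states that replicates are separate cultures or litters, so p-values measure the spread between these samples. Replicate numbers did not pair the samples. Alternatives were a pseudocount of 0.1, no filter, all biotypes, rescaled TPM, the compared groups alone, a replicate block, an intensity trend and leaving out each library, and, after seeing the data, averaging replicates closer than a median of 0.1 log2. Members and lists were chosen with earlier results of these data known. All 8 members are named, with the 3 most correlated genes of each tested member. Of the list genes called, only some are named. Promoters are from RefSeq (GRCm38.p6), figures by matplotlib 3.10.9 in Python 3.11.15.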

Additional observations from a re-analysis of the deposited data

Results flagged for a closer look

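Between the 3D cultures, the difference from 2D EpiSCs was unequal for 3 genes, by the direct test between ESC-derived and embryo-derived 3D EpiSCs, in which the shared 2D libraries cancel. The difference was 2.39 for Ifitm3 (limma adjusted p = 1.3e-05), -1.26 for Kit (adjusted p = 0.0048) and -1.003 for Prdm1 (adjusted p = 0.042), where a positive value is higher in ESC-derived 3D EpiSCs. Ifitm3 and Kit did not overlap between the groups, and Prdm1 did. With near-identical replicates averaged, Ifitm3 kept its call. Kit (-1.22, adjusted p = 0.084) and Prdm1 (-0.71, adjusted p = 0.39) were then not called. The Prdm1 call was lost in 8 of 14 alternatives. Groups had 3 samples, too few for a test of single outlying samples.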

How the results depend on the processing

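Of the members' calls, 25 over the 6 pairs of cultures and 11 over the 4 successive stages, the total stayed within 19 to 26 and 9 to 14 under all alternatives. These totals include the calls of Dppa3 against EpiLCs and of Prdm14 from E3.5 to E4.5, which the filter fixed. The replicate block left both at 25 and 11, and changed no member's call. Deviations of same-numbered samples correlated at -0.15 to 0.16 over the cultures and -0.12 to 0.072 over the stages, so the numbers were not taken as pairs. Leaving out 1 library gave 20 to 26 calls over the cultures and 9 to 11 over the stages. By comparison it gave 3 to 3 for ESC-derived 3D against 2D EpiSCs, 2 to 3 for embryo-derived 3D against 2D EpiSCs, 3 to 5 for ESC-derived 3D EpiSCs against EpiLCs, 4 to 5 for embryo-derived 3D EpiSCs against EpiLCs, 4 to 6 for 2D EpiSCs against EpiLCs and 2 to 4 between the 3D cultures. For the stages it gave 2 to 4 from E3.5 to E4.5, 3 to 4 from E4.5 to E5.5, 0 to 1 from E5.5 to E6.5 and 3 to 4 from E6.5 to E7.5. The count of 2 from E3.5 to E4.5 came without E3.5 replicate 1, when Prdm14 no longer passed the filter and Ifitm3 was 0.93. Other counts that moved by over 1.5 times were E5.5 to E6.5, where 1 gene, Ifitm1, was called with a pseudocount of 0.1 and with rescaled TPM, and the 3D cultures, where 1 gene was called with near-identical replicates averaged. Averaging took the ESC-derived replicates 1 and 2, the embryo-derived replicates 2 and 3 and the 2D EpiSC replicates 1 and 2 as 1 sample each, and removed 6 of the members' calls. Directions reversed for 5 values near 0, each with 1 library left out, over which Dppa3 in ESC-derived 3D against 2D EpiSCs ranged from -0.043 to 0.038, Prdm1 in embryo-derived 3D EpiSCs against EpiLCs from -0.17 to 0.087, Ifitm3 from E4.5 to E5.5 from -0.42 to 0.028, Prdm1 from E5.5 to E6.5 from -0.0079 to 0.33 and Prdm14 from E6.5 to E7.5 from -0.059 to 0.31. With rescaled TPM, Prdm1 lost its call between E6.5 and E7.5 and between the 3D cultures, and Prdm14 gained one from E4.5 to E5.5 (-1.04). The causes were not tested. TPM keeps no depth, so no limit of detection can be given for genes listed at 0.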
